A study of Arabidopsis thaliana with 30 samples.

Results

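PsbS is the thylakoid protein that senses the acidification of the lumen in excess light and switches on energy-dependent quenching, the fastest part of non-photochemical quenching, in which absorbed light is released as heat before it reaches the photosystem II reaction centre. Quenching also needs the xanthophyll cycle, in which violaxanthin de-epoxidase makes zeaxanthin from violaxanthin. Plants without PsbS grow well in steady moderate light and are known for photodamage when the light fluctuates.

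Here the effect of losing PsbS on the rosette transcriptome was read in water-treated plants, by comparing the 3 water libraries of npq4-1 with the 3 water libraries of Col-0, 6 of the 30 libraries of the series. The members were taken by genotype and treatment alone. Col-0 is the wild type, and npq4-1 is a mutant described by the study as lacking the PsbS gene (AT1G44575, named NPQ4 in the annotation). The labels name 1 mutant genotype in this comparison, and only the npq4-1 plants carried the lesion, throughout life. Both genotypes grew in the same chamber at 120 µmol photons per square metre and second and were 4 weeks old at harvest, and from the age of 2 weeks each received 10 ml of water every 2 days. The other 24 libraries were from the same genotypes given 3 mM bicarbonate and from 3 lines overexpressing PsbS, alone (oePsbS) or with β-carbonic anhydrase transgenes (oePsbSoeCA1 and oePsbSoeCA1CA2). Levels are given as CPM, gene counts relative to a fixed total after scaling of the libraries to each other by TMM. Fold changes are log2 ratios of npq4-1 to Col-0 with their approximate standard error (SE). The call required a log2 fold change beyond 1 in either direction together with an adjusted p (Benjamini-Hochberg, all genes) under 0.05 in edgeR's two-sided quasi-likelihood test, from which all p-values below come unless another is named. The paper's methods describe the transcriptomic samples as biological, with technical repeats. They do not say whether a sample was a plant or a pool, or how the repeats entered the libraries. Unless another fit is named, p-values rest on the spread within groups over all 30 libraries, not on the 6 compared alone. That spread may be in part technical.

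The 6 libraries held between 15346372 and 18326426 counts, so depth was nearly even between the genotypes. The tissue matched its label. The 7 leaf mesophyll markers, led by the small subunit of Rubisco, summed to between 36896 and 40078 CPM in Col-0 and between 34640 and 37022 CPM in npq4-1. No member was called by edgeR, against 0.158% of all genes. All 7 had a log2 fold change below 0, and 3 were lower at an unadjusted p under 0.05, against 7.91% of all genes. The members with the smallest p were GAPB, RBCS1A and RBCS1B, enzymes of carbon fixation, at log2 fold changes between −0.34 and −0.19 with adjusted p of at least 0.139. The 9 root markers never passed 6 counts in a library and none was tested. No 2 of the 6 libraries held identical counts.

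The target of the mutation was checked first. With water PsbS stood at 1740.1, 1513 and 1604 CPM in the Col-0 libraries and at 0.59, 0.12 and 6.28 CPM in those of npq4-1. The groups were far apart, and npq4-1 replicate 3 was the highest of its group, with 118 reads against 9 and 2 in replicates 1 and 2. The log2 fold change was −9.34 (SE 0.40, adjusted p = 5.22e-15), a 649-fold lower level, and without npq4-1 replicate 3 it was −12.18. Reads in the mutant were all assigned to the main transcript, AT1G44575.1, at 0.66, 0.139 and 7.36 TPM (reads per length, scaled to a fixed total). In Col-0 this transcript stood at 1951, 1667 and 1850 TPM, and the minor transcript AT1G44575.2 at 21.1, 12.4 and 21.6 TPM. In the mutant AT1G44575.2 was listed at 0 in all 3 libraries.

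The genes next to PsbS were then examined, because a lesion that removes a gene can reach its neighbours. Of the 20 annotated genes on each side in locus order, 23 were present in the files and 13 had enough reads to be tested. None of these 13 was called by edgeR, where 0.158% of the 18999 genes tested were called. An unadjusted p under 0.05 was reached by 3, against 8.33% of all genes higher and 7.91% lower. Their log2 fold changes lay between −0.26 for ALDH3H1, an aldehyde dehydrogenase, and 0.50 for SIAR1, an amino acid transporter. CH1, the chlorophyllide a oxygenase that makes chlorophyll b, had a log2 fold change of 0.16 (SE 0.06, adjusted p = 0.187). The 10 neighbours too low to test were AT1G44160, AT1G44180, AT1G44191, AT1G44224, hemb2, AT1G44414, AT1G44478, AT1G44542, AT1G44608 and AT1G44740. AT1G44608, the first gene after PsbS in the files, had 0, 2 and 4 counts in Col-0 with water and 3, 4 and 2 with bicarbonate. It had 0 in every npq4-1 library of both treatments, and a loss of this gene was not tested. AT1G44414 went the other way with water, at a mean of 0.126 CPM in Col-0 and 0.231 CPM in npq4-1.

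Across the transcriptome 30 of 18999 genes were called, 19 higher (0.100%) and 11 lower (0.0579%) in npq4-1. The libraries of the 2 genotypes did not overlap for any of the 30 genes. The genes were called from these same libraries, so this separation largely follows from the call and is not separate evidence. Over all genes tested the libraries did not overlap for 10.6% in the higher direction and 9.77% in the lower. Without the fold limit, an adjusted p under 0.05 was reached by 64 genes that were higher (0.337%) and 70 that were lower (0.368%). The list of calls was sensitive to single libraries. It came to 6 higher and 7 lower without Col-0 replicate 1, 25 and 19 without Col-0 replicate 2, and 1 and 2 without Col-0 replicate 3. Without npq4-1 replicates 1, 2 and 3 in turn it came to 1 and 3, 11 and 20, and 1 and 2. NPQ4, AT3G01345 and AT1G62290 were called in every setting that gave them a value, out of 18, and the other 27 genes lost the call in at least 1. Of these 27, 6 were called in no setting that left out 1 library: TCH3, XTH31, CYP71B3, AT1G68620, CCOAMT and AT1G65510.

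**Figure D1:**
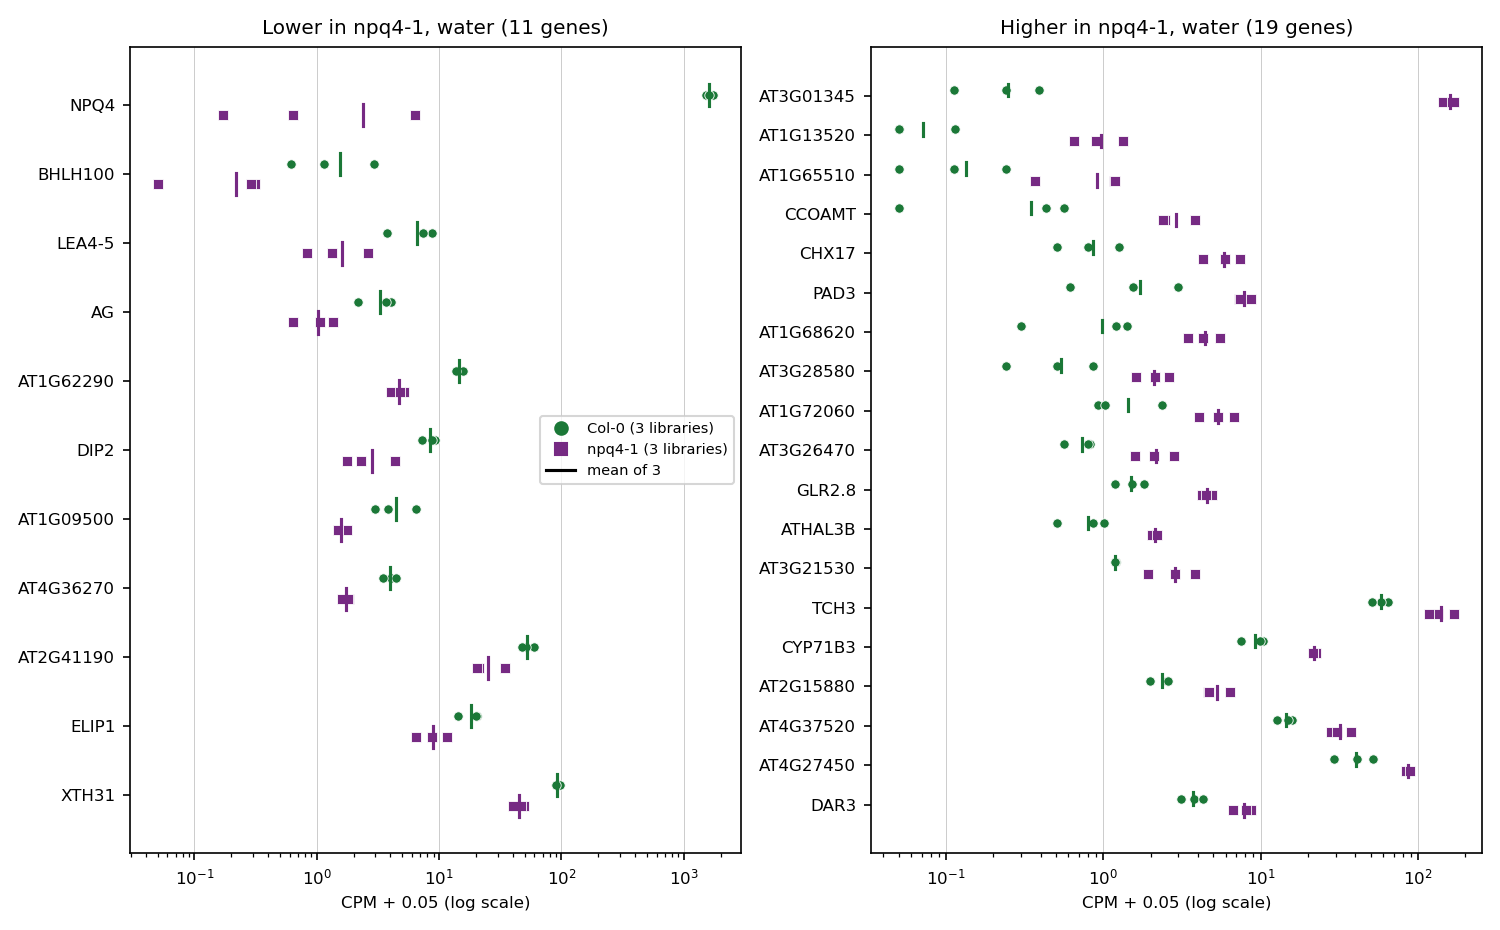
Levels of the 30 genes called between npq4-1 and Col-0 with water, with CPM + 0.05 on a log axis, 1 point per library and a bar at the mean of 3. In each row the 3 green points (Col-0) and the 3 purple points (npq4-1) do not overlap, which largely follows from the call on these same libraries. NPQ4 and AT3G01345 lie furthest apart.

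Beside PsbS, 3 genes were called with water and again in the bicarbonate libraries. AT3G01345, annotated as an uncharacterized protein on chromosome 3 (TAIR10.1, positions 129138 to 130749), stood at 0.192, 0.0628 and 0.343 CPM in Col-0 and at 144, 165 and 170.1 CPM in npq4-1. The gene was close to silent in each Col-0 library and well expressed in each npq4-1 library. The log2 fold change was 9.57 (SE 0.27, adjusted p = 1.45e-19), the largest of the comparison in either direction. With bicarbonate it stood between 0.0548 and 0.125 CPM in Col-0 and between 169 and 200.5 CPM in npq4-1, a log2 fold change of 11.12 (SE 0.29, adjusted p = 4.12e-20) in 6 libraries that the water comparison does not use.

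AT1G62290, annotated as an aspartyl protease on chromosome 1 (TAIR10.1, positions 23009885 to 23013601), stood at 14.3, 15.6 and 13.6 CPM in Col-0 and at 5.11, 4.02 and 4.74 CPM in npq4-1. It was lower in the mutant by a log2 fold change of −1.65 (SE 0.18, adjusted p = 8.49e-06), and by −1.88 (SE 0.18, adjusted p = 8.26e-07) with bicarbonate. AT4G36270, annotated as an ATP-binding protein on chromosome 4 (TAIR10.1, positions 17161024 to 17165241), was a weakly expressed gene at 3.97, 3.45 and 4.40 CPM in Col-0 and 1.77, 1.74 and 1.54 CPM in npq4-1. Its log2 fold change was −1.23 (SE 0.28, adjusted p = 0.0348) with water and −1.66 (SE 0.28, adjusted p = 0.00784) with bicarbonate. With water the call for AT4G36270 was lost when any of 5 of the 6 libraries was left out (all but Col-0 replicate 2), with adjusted p up to 0.164.

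The levels of these 3 genes in the PsbS overexpressing lines followed npq4-1 and not Col-0. AT3G01345 lay between 127 and 253 CPM in all 24 libraries of the 4 other genotypes and between 0.0548 and 0.343 CPM in the 6 of Col-0, over both treatments. AT1G62290 lay between 2.71 and 8.34 CPM in those 24 libraries and between 12.7 and 15.6 CPM in Col-0, and AT4G36270 between 0.875 and 2.59 CPM against 3.45 to 5 CPM. PsbS itself did not share this pattern, since its mean with water was 4059 ± 288 CPM (SD, n = 3) in oePsbS. In all, 7 of the 18999 genes separated the 6 Col-0 libraries from the 24 others without overlap, 5 higher in the others (0.0263%) and 2 lower (0.0105%). The other 4 were AT1G62250, KCS8, AT2G30930 and CRK40, each with a log2 fold change under 1 in npq4-1. Some other called genes also lay on the npq4-1 side in oePsbS with water, without overlap with Col-0. ELIP1 lay there between 4.96 and 7.66 CPM, XTH31 between 29.8 and 34.7 CPM and TCH3 between 119 and 123 CPM. In oePsbSoeCA1CA2 with water ELIP1, XTH31 and TCH3 overlapped Col-0. In oePsbS PAD3 (1.03 to 1.64 CPM) and BHLH100 (1.16 to 4.33 CPM) also overlapped Col-0 with water. Whether the changes of such genes depend on PsbS was not tested. All such comparisons share the Col-0 libraries, and differences between the Col-0 stock and the other lines that do not depend on PsbS cannot be told apart from them.

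**Figure D2:**
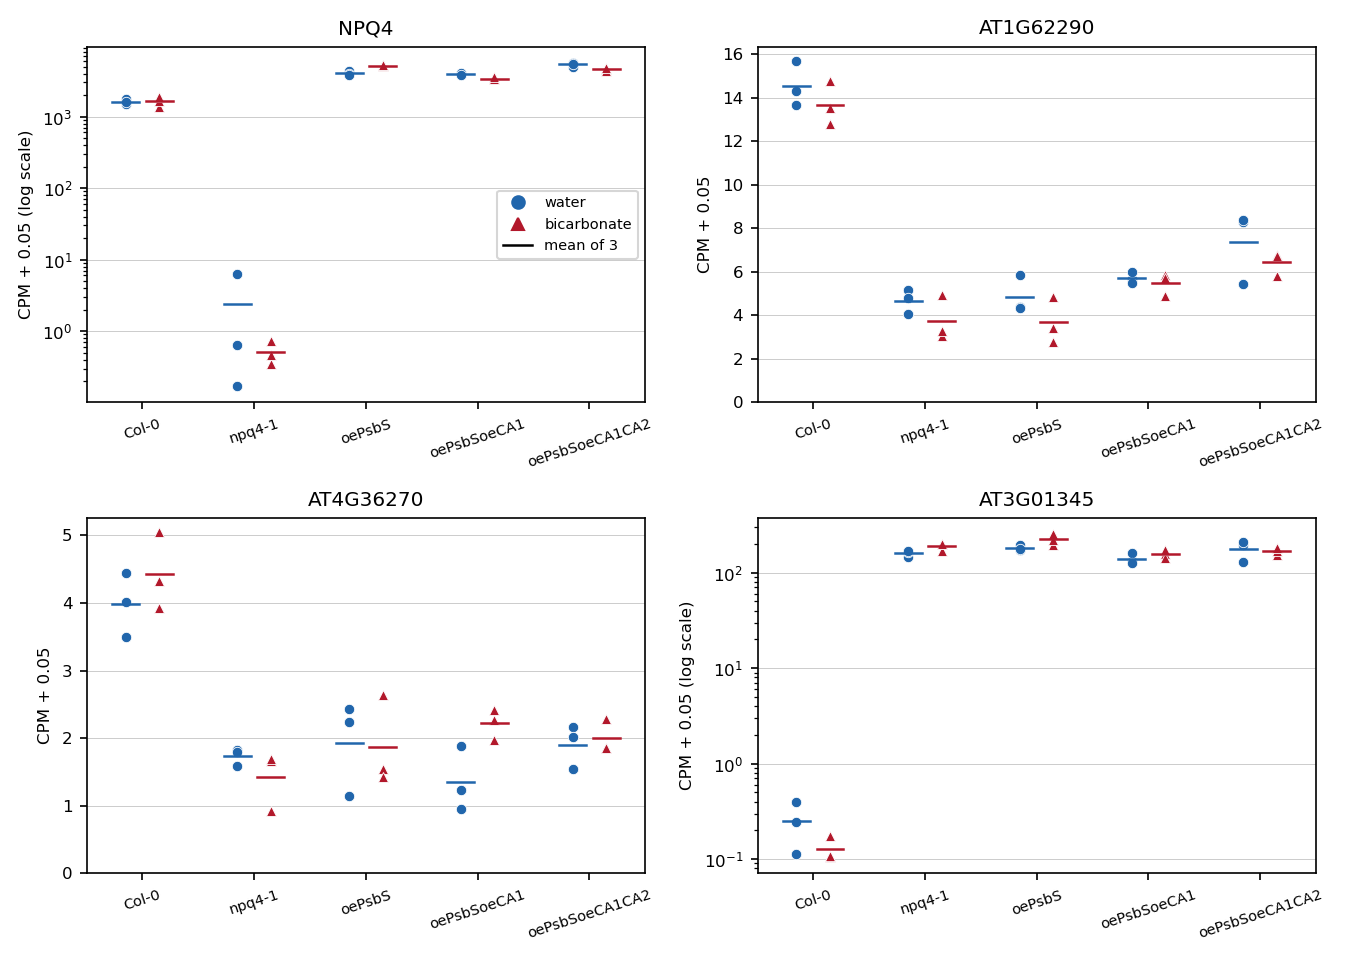
Levels of the 4 genes called in npq4-1 with both treatments, in all 30 libraries (circles for water, triangles for bicarbonate, bars at the mean of 3), as CPM + 0.05 on a log axis for NPQ4 and AT3G01345 and on a linear axis for the other 2. NPQ4 is low in npq4-1 alone, whereas for AT1G62290, AT4G36270 and AT3G01345 the 6 Col-0 libraries stand apart from the other 24.

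AT1G62250, annotated as an orotidine phosphate decarboxylase, had the smallest adjusted p of the genes that were not called. It stood at 27.5, 29.1 and 21.6 CPM in Col-0 and at 45.5, 47.1 and 43.5 CPM in npq4-1, a log2 fold change of 0.80 (SE 0.10, adjusted p = 6.75e-05), and 0.96 (SE 0.10, adjusted p = 1.68e-06) with bicarbonate. In locus order 7 annotated genes lie between it and AT1G62290, which was lower. HKL1, a hexokinase-like protein, had a log2 fold change of 0.64 (SE 0.10, adjusted p = 0.00167) with water and 0.68 (SE 0.09, adjusted p = 0.000469) with bicarbonate.

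The remaining 8 genes called lower were ELIP1, LEA4-5, XTH31, AT2G41190, DIP2, AT1G09500, BHLH100 and AG. ELIP1, a light-harvesting-like protein made under photooxidative stress, stood at 14.3, 20.5 and 20 CPM in Col-0 and 8.71, 11.5 and 6.39 CPM in npq4-1. Its log2 fold change was −1.05 (SE 0.21, adjusted p = 0.0208). LEA4-5, a late embryogenesis abundant protein of drying tissue, stood at 3.71, 8.72 and 7.36 CPM in Col-0 and 0.786, 2.58 and 1.28 CPM in npq4-1 (log2 fold change −2.08, SE 0.48, adjusted p = 0.0386). XTH31, an enzyme that remodels xyloglucan in the cell wall, had tight levels of 89.5, 96.5 and 90.4 CPM in Col-0 against 49.6, 46.3 and 39.9 CPM in npq4-1 (log2 fold change −1.03). AT2G41190, annotated as an amino acid transporter, was of similar abundance, at 47.8 to 59.1 CPM in Col-0 and 20.4 to 34.2 CPM in npq4-1. DIP2 (AT5G03210), annotated as an E3 ubiquitin ligase, stood at 7.19 to 9.15 CPM in Col-0 and 1.70 to 4.32 CPM in npq4-1. AT1G09500, annotated as an NAD(P)-binding protein, stood at 2.94 to 6.39 CPM and 1.44 to 1.70 CPM.

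BHLH100 and AG were called from low levels. BHLH100, a transcription factor induced by iron deficiency, stood at 2.88, 0.565 and 1.08 CPM in Col-0 and 0.262, 0.24 and 0 CPM in npq4-1, with Col-0 replicate 1 the highest (log2 fold change −3.18, SE 0.72, adjusted p = 0.0347). AG, the homeotic gene of stamens and carpels, stood at 3.97, 2.13 and 3.65 CPM in Col-0 and 1.31, 1.02 and 0.586 CPM in npq4-1 (log2 fold change −1.76, SE 0.31, adjusted p = 0.0117). Flower markers were expressed at low levels in these rosettes. Their 10 genes summed to 11.8, 14.0 and 24 CPM in Col-0 and to 19.8, 12.4 and 11.7 CPM in npq4-1, so that the sums overlapped, and at most 1 of the 10 was at 0 in a library. The median log2 fold change of the 9 tested was −1.04, and it was 0.53 without Col-0 replicate 3 and −2.47 without npq4-1 replicate 1. SEP1, a floral organ identity factor, had a log2 fold change of −1.94 with adjusted p = 0.087. STM, the homeobox gene of the shoot meristem, stood at 4.86, 6.78 and 3.71 CPM in Col-0 and 9.5, 8.34 and 8.57 CPM in npq4-1 (0.79, adjusted p = 0.34). The part of flower primordia in the AG value was not tested. In whole rosettes, fewer cells of a type and less RNA per cell cannot be told apart.

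A further 18 genes were called higher, of which PAD3 was the only member of the defence lists examined below. PAD3, the cytochrome P450 that completes the synthesis of camalexin, the main phytoalexin of Arabidopsis, stood at 2.94, 0.565 and 1.48 CPM in Col-0 and at 8.65, 7.26 and 7.35 CPM in npq4-1. Each mutant library was above each wild-type library, and the log2 fold change was 2.22 (SE 0.46, adjusted p = 0.0224). DAR3, a protein of the DA1-related family, stood at 3.07 to 4.22 CPM in Col-0 and 6.66 to 8.65 CPM in npq4-1 (log2 fold change 1.08). GLR2.8, a glutamate receptor-like channel, stood at 1.13 to 1.77 CPM and 4.2 to 4.85 CPM (log2 fold change 1.61, SE 0.35, adjusted p = 0.0305). AT2G15880, annotated as a leucine-rich repeat protein, and AT3G26470, annotated with a powdery mildew resistance domain, had log2 fold changes of 1.17 and 1.63. The count of AT3G26470 is uncertain, since it overlaps AT3G26480, as are those of TCH3, AT1G72060, AT3G21530 and AT4G27450, which also overlap another gene in the files.

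The most abundant of the genes called higher, after AT3G01345, was TCH3, a calmodulin-like calcium sensor induced by touch. It stood at 64.9, 57.9 and 50.8 CPM in Col-0 and at 169.7, 133 and 117 CPM in npq4-1 (log2 fold change 1.28, SE 0.29, adjusted p = 0.0369). AT4G27450, annotated as an aluminium-induced protein, stood at 40.7, 51.7 and 29.3 CPM in Col-0 and 86.6, 84.0 and 89.7 CPM in npq4-1 (log2 fold change 1.1). AT4G37520, a peroxidase, stood at 12.7 to 15.7 CPM and 28.1 to 37.3 CPM, and CYP71B3, a cytochrome P450, at 7.48 to 10.3 CPM and 21.4 to 22.3 CPM. These 4 genes were about 2-fold higher in npq4-1 and their groups did not overlap.

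The others were weakly expressed in Col-0. CHX17, a cation/proton exchanger, stood at 0.457 to 1.22 CPM in Col-0 and 4.26 to 7.32 CPM in npq4-1 (log2 fold change 2.85, SE 0.60, adjusted p = 0.0246). CCOAMT, a methyltransferase of phenylpropanoid esters, stood at 0 to 0.514 CPM and 2.34 to 3.78 CPM (log2 fold change 3.2). AT1G68620 (a hydrolase), AT3G28580 (a nucleoside triphosphatase), AT1G72060 (a protease inhibitor), ATHAL3B (a flavoprotein) and AT3G21530 (a nuclease-like protein) had log2 fold changes between 1.3 and 2.22. AT1G65510 had a log2 fold change of 3.25 at levels up to 1.14 CPM. AT1G13520, of unknown function, had 1 count in Col-0 and 47 in npq4-1 over 3 libraries each, a ratio of CPM of 45.5 with an exact 95% binomial counting interval of 7.78 to 1834. Its fitted log2 fold change depends on the prior count, and intervals of this kind cover counting error only.

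The same genotype contrast in the bicarbonate libraries gave 4 called genes of 18999 (0.0211%), 1 higher and 3 lower. All 4 were among the 30 called with water: AT3G01345, NPQ4, AT1G62290 and AT4G36270. PsbS was at 1366, 1647 and 1895 CPM in Col-0 and at 0.667, 0.292 and 0.41 CPM in npq4-1 there, a log2 fold change of −11.77. Of the 30 genes, 28 had the same sign with both treatments and 26 had a smaller change with bicarbonate. The 30 were chosen by large changes with water, which alone favours smaller changes in other libraries. The 2 that turned were BHLH100, at 2.05 to 3.23 CPM in Col-0 and 2.04 to 2.93 CPM in npq4-1 with bicarbonate (log2 fold change 0.02, SE 0.46), and AT1G09500 (0.51, SE 0.33). In 9 of the 30 the bicarbonate libraries did not overlap in the direction seen with water, against 5.31% of all genes in the higher and 5.67% in the lower direction. GLR2.8 was the nearest to a call of the other 26, with a log2 fold change of 1.47 (SE 0.36, adjusted p = 0.322). PAD3 had a log2 fold change of 0.96 (SE 0.44, adjusted p = 0.67) with bicarbonate, where npq4-1 replicate 1 was at 8.40 CPM and its other libraries at 2.68 and 3.63 CPM.

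The genotype difference did not differ detectably between treatments for any gene. The test of the difference of differences called 0 of 18999 genes in edgeR, with 858 at an unadjusted p under 0.05, and 0 in DESeq2, with 775. For the 30 genes, 10 had an unadjusted p under 0.05 and the smallest adjusted p was 0.991. These genes were chosen by water values that enter this contrast, so their share is not comparable with that of all genes. AT1G09500 had the smallest unadjusted p of the 30, 0.000118. A fold change past the call with water and not with bicarbonate is therefore not shown to depend on the treatment.

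**Figure D3:**
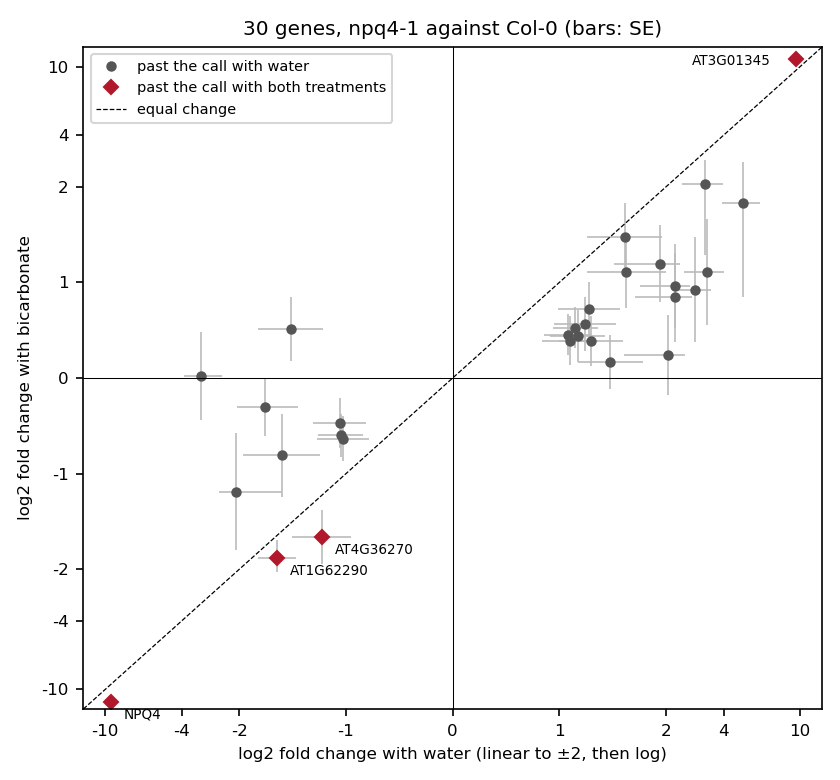
Log2 fold change of npq4-1 against Col-0 with water (x axis) and with bicarbonate (y axis) for the 30 genes called with water, bars showing SE and axes linear to ±2 and logarithmic beyond. The 4 red diamonds lie near the line of equal change, and of the 26 grey points 24 have the same sign on both axes and all 26 lie closer to 0 on the y axis. The choice of genes by their x values favours this.

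The photosynthetic apparatus was then read gene by gene from lists that cover the rest of the pathway. Of the 23 genes of quenching and the xanthophyll cycle, NPQ4 alone was called. The list had 18 members below 0 and 5 above, with a median of −0.08, and the other 22 had log2 fold changes between −0.41 and 0.10. Counting NPQ4, 5 of the 23 were lower at an unadjusted p under 0.05, against 7.91% of all genes, and 9 had mutant libraries below all wild-type libraries, against 9.77%. With bicarbonate 12 were below 0 and 11 above, with a median of −0.02. NPQ1, the violaxanthin de-epoxidase, stood at 91.1, 106 and 104 CPM in Col-0 and at 115, 102 and 104 CPM in npq4-1. ABA1, the zeaxanthin epoxidase, stood at 789 to 916 CPM and 803 to 822 CPM. BCH1, a β-carotene hydroxylase, was lower in each mutant library, at 35.2, 35.1 and 36.5 CPM in Col-0 and 24, 28.4 and 27.8 CPM in npq4-1, but did not pass the test (log2 fold change −0.41, SE 0.13, adjusted p = 0.106). PGRL1A, a component of cyclic electron flow, had a log2 fold change of −0.20 (adjusted p = 0.143). SOQ1, LCNP and ROQH1, which act in a slower, PsbS-independent quenching, had log2 fold changes of −0.08, 0.07 and −0.05.

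None of the 20 antenna genes and none of the 25 nuclear photosystem genes was called or reached an adjusted p under 0.05. Of all genes 0.158% were called. Above 0 were 17 of the antenna genes and 14 of the photosystem genes with water, and 10 and 18 with bicarbonate. In edgeR 2 of the antenna genes and 2 of the photosystem genes had an unadjusted p under 0.05, against 8.33% of all genes higher and 7.91% lower. Log2 fold changes lay between −0.34 and 0.15 in the antenna, with a median of 0.07, and between −0.15 and 0.17 in the photosystems, with a median of 0.00. LHCB4.3, a minor antenna protein of photosystem II, had the lowest value (−0.34, SE 0.14, adjusted p = 0.23), and PETE1, a plastocyanin, the highest of the photosystem list (0.17, SE 0.06, adjusted p = 0.127). LHCB1.1 (AT1G29920, named CAB2 in the annotation), a major antenna protein and 1 of a family of near-identical genes among which reads are uncertain, stood at 8156 to 8529.8 CPM in Col-0 and 8908 to 9246 CPM in npq4-1 (log2 fold change 0.12). LHCB2.2 had a log2 fold change of 0.08. LHCA2, of the photosystem I antenna, had 0.12 (adjusted p = 0.361), and PETE2, a plastocyanin, and PSAF, a photosystem I subunit, had −0.15 and 0.13. ATCG00020, the plastid gene of the D1 protein, was at 149 to 270.2 CPM and 166 to 193 CPM in libraries prepared for polyadenylated RNA. The light-stress relatives of the antenna numbered 7, all with a log2 fold change below 0, and only ELIP1 was called. ELIP2 was at 1.32 to 1.77 CPM in Col-0 and 0.983 to 1.14 CPM in npq4-1 (log2 fold change −0.57, adjusted p = 0.536), and SEP2 had a log2 fold change of −0.28 (adjusted p = 0.105).

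Of the 19 genes of reactive oxygen scavenging tested, edgeR called 0, against 0.158% of all genes. At an unadjusted p under 0.05 were 4, 2 of them higher (8.33% of all genes) and 2 lower (7.91%). CAT3, a catalase, had the highest log2 fold change, 0.48 (SE 0.16, adjusted p = 0.127), and MSD1, the mitochondrial superoxide dismutase, had −0.18 (adjusted p = 0.147). FSD3, a plastid superoxide dismutase, had −0.31 (adjusted p = 0.288). Carbonic anhydrases, whose genes were altered in other lines of the series, were not called either, 0 of 6. Of these, 1 was higher at an unadjusted p under 0.05, against 8.33% of all genes. CA1 stood at 2900.1 to 3059 CPM in Col-0 and 2345 to 2904 CPM in npq4-1 (log2 fold change −0.20, SE 0.31), CA2 had a log2 fold change of −0.12 (SE 0.10), and CA6 of 0.54 (adjusted p = 0.119). CA3 had 0.64 (adjusted p = 0.352).

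**Figure D4:**
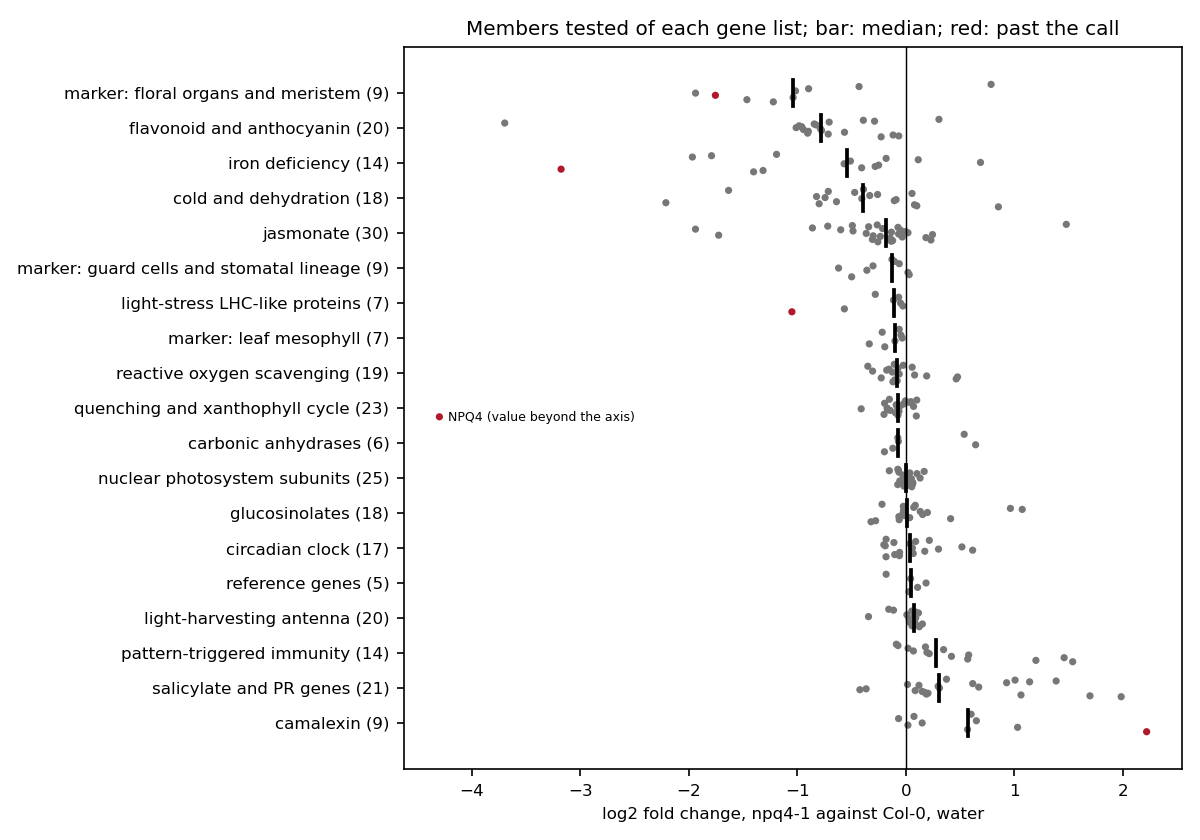
Log2 fold change with water of each tested member of 19 gene lists (number tested in brackets), with a bar at the list's median and red points for called genes, NPQ4 being drawn at the edge of the axis. Photosynthetic lists sit close to 0, the flavonoid list has a median of −0.78, and the camalexin list has a median of 0.57 with PAD3 the red point.

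Flavonoid and anthocyanin synthesis is the branch of phenylpropanoid metabolism that makes ultraviolet-screening flavonols and red anthocyanins. Of the 20 genes of this list, 19 had a log2 fold change below 0, and the median was −0.78 against 0.00 for all genes tested. None was called, against 0.158% of all genes, since no member passed the fold limit and the adjusted p together. The lowest log2 fold change was −3.70. An adjusted p under 0.05 was reached by 4 (0.368% of all genes were lower by that rule). At an unadjusted p under 0.05, 14 were lower, against 7.91% of all genes. The mutant libraries lay below all wild-type libraries for 9 of the 20, against 9.77% of all genes.

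These 4 genes encode enzymes that act in sequence on the way to flavonols. TT4, chalcone synthase, stood at 313, 387 and 365 CPM in Col-0 and at 174, 228 and 167 CPM in npq4-1 (log2 fold change −0.91, SE 0.18, adjusted p = 0.0208). TT5, chalcone isomerase, stood at 17.5, 17.6 and 21.1 CPM and 12.2, 15.4 and 10.4 CPM (−0.57, SE 0.12, adjusted p = 0.0261). F3H, flavanone 3-hydroxylase, stood at 53.7, 57.5 and 54.9 CPM and 28.2, 39.6 and 21.5 CPM (−0.90, SE 0.18, adjusted p = 0.0208). FLS1, flavonol synthase, stood at 23.4, 21.0 and 38.9 CPM and 15.7, 17.0 and 10.8 CPM (−0.94, SE 0.21, adjusted p = 0.0344). In all 4 the mutant libraries lay below the wild-type libraries, and npq4-1 replicate 2 was the highest mutant library.

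Upstream enzymes shared with lignin synthesis differed less. PAL1 and C4H, which make cinnamic and coumaric acid, had log2 fold changes of −0.23 and −0.12. The anthocyanin branch varied more between replicates, with Col-0 replicate 2 high. DFR, dihydroflavonol reductase, stood at 32.4, 64.3 and 39.8 CPM in Col-0 and 29.1, 33.5 and 16.6 CPM in npq4-1, and LDOX, which makes the anthocyanidins, had a log2 fold change of −1.01 (SE 0.37, adjusted p = 0.171). PAP1, the MYB activator of this branch, stood at 15.2, 14.1 and 12.3 CPM and 8.19, 10.4 and 4.63 CPM (−0.84, SE 0.39, adjusted p = 0.279). MYBL2, a repressor of the branch, was the only member above 0, with a log2 fold change of 0.31 (SE 0.10, adjusted p = 0.135). With bicarbonate 18 of the 20 members were below 0 and the median was −0.28, and none passed an adjusted p of 0.05. TT4 was then at 237, 297 and 388 CPM in Col-0 and at 235, 274 and 317 CPM in npq4-1, with overlapping groups.

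**Figure D5:**
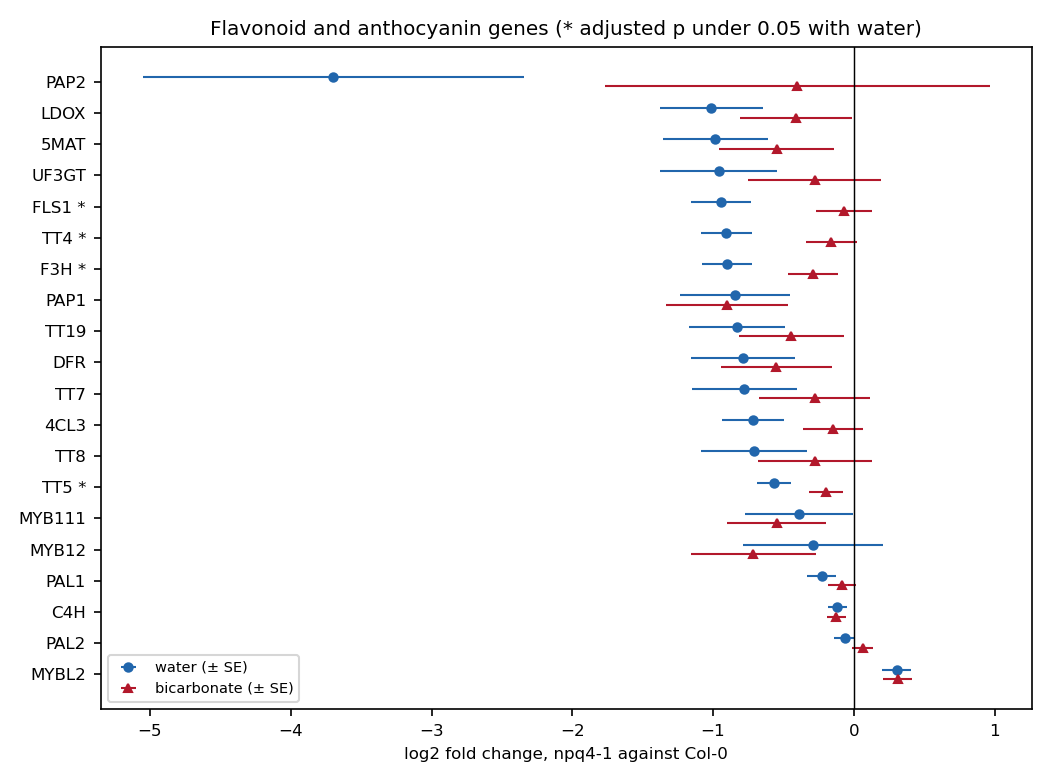
Log2 fold change of npq4-1 against Col-0 for the 20 flavonoid and anthocyanin genes with water (blue circles) and with bicarbonate (red triangles), bars showing SE and asterisks marking an adjusted p under 0.05 with water. Of the blue points 19 lie below 0, and most red points lie nearer to 0.

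The upstream regions of the 4 genes were read for the G-box, letters CACGTG, the core bound by light-regulated bZIP factors such as HY5 at flavonoid genes. The 250 bases before the annotated gene start held it in TT4 and F3H and not in TT5 or FLS1. The 2 sequences are shown because the genes moved together with water, in lower case with the G-box in capitals, 5′ to 3′ on the coding strand, from RefSeq TAIR10.1.
TT4, chr5:4488226-4488475, plus strand: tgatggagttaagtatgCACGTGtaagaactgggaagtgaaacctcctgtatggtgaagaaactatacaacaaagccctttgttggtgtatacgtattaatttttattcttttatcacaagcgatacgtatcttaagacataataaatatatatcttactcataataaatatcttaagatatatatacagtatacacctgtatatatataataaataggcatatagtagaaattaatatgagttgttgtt
F3H, chr3:19024942-19025191, plus strand: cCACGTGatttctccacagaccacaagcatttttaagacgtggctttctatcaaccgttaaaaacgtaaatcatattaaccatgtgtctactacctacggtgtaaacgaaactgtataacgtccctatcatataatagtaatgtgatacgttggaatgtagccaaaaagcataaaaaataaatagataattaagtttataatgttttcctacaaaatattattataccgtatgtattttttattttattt
Over the list 6 of 20 upstream regions held a G-box on either strand (30%), against 6.5% of 27388 nuclear genes. An AC element, letters ACCTACC or ACCTAAC, was in 1 of 20 (5%) against 3.58%. The W-box, letters TTGAC, which defence WRKY factors bind, was in 6 of the 9 camalexin genes (66.7%) against 44.9%, and not in PAD3. These matches are a description of letters in these windows.

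Of the 9 camalexin genes, PAD3 was the only one called, 8 were above 0 and the median log2 fold change was 0.57. WRKY33, the activator of PAD3, stood at 27.2, 18.9 and 21.5 CPM in Col-0 and 37.7, 32.9 and 32.0 CPM in npq4-1 (0.60, SE 0.32, adjusted p = 0.356). CYP71A12, a P450 of the same pathway, had a log2 fold change of 1.03 (adjusted p = 0.366), and the entry enzymes CYP79B2 and CYP79B3 had 0.02 and 0.15. GSTF6, a glutathione transferase of this pathway, stood at 44.8, 52 and 40.1 CPM in Col-0 and 103, 62.9 and 49 CPM in npq4-1 (0.65, adjusted p = 0.263). Of the 21 salicylate and pathogenesis-related genes, 19 were above 0 with a median of 0.31. In edgeR 0 were called, and 6 were higher at an unadjusted p under 0.05, where 8.33% of all genes were. PR2, a glucanase, stood at 77.8, 35.0 and 36.9 CPM in Col-0 and at 156, 179 and 150.3 CPM in npq4-1 (1.70, SE 0.55, adjusted p = 0.119). PR5, a thaumatin-like protein, stood at 88.7, 40.9 and 54.3 CPM and 140.4, 145 and 98.9 CPM (1.06, SE 0.36, adjusted p = 0.135), and PAD4, a regulator of salicylate signalling, had one of 0.67 (SE 0.23, adjusted p = 0.133). PR1, the classic marker of this pathway, stood at 53.4, 6.59 and 5.59 CPM in Col-0 and at 98.8, 109 and 50.1 CPM in npq4-1. Its groups overlapped because Col-0 replicate 1 was above the lowest mutant library, and it did not pass the test (1.98, SE 0.98, adjusted p = 0.315). With bicarbonate PR1 ranged from 1.25 to 82.4 CPM in Col-0 and from 21.8 to 102 CPM in npq4-1.

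Pattern-triggered immunity genes had a median of 0.28 with 12 of 14 above 0, glucosinolate genes a median of 0.01 and jasmonate genes a median of −0.18 with 25 of 30 below 0. With bicarbonate the jasmonate median was 0.07, with 19 above 0 and 11 below. In edgeR 0 genes of these 3 lists were called, against 0.158% of all genes. At an unadjusted p under 0.05 were 2, 4 and 3, against 8.33% of all genes higher and 7.91% lower. FRK1, a kinase gene induced by flagellin, stood at 2.24, 0.69 and 0.742 CPM in Col-0 and at 4.19, 3.30 and 3.14 CPM in npq4-1 (log2 fold change 1.54, adjusted p = 0.277). WRKY29 and BIK1, further components of this response, had values of 1.46 (adjusted p = 0.214) and 0.35 (adjusted p = 0.315) on the same scale. CYP81F2, which modifies indole glucosinolates, had a log2 fold change of 1.07 (SE 0.36, adjusted p = 0.132). MYB28, the activator of aliphatic glucosinolate synthesis, had −0.32 (adjusted p = 0.137) and IGMT1, an indole glucosinolate methyltransferase, 0.96 (adjusted p = 0.239). AOS, which commits lipid to jasmonate, had −0.31 (adjusted p = 0.226). LOX6, a lipoxygenase, had 0.23 (adjusted p = 0.161) and CORI3, a coronatine-induced gene, −0.49 (adjusted p = 0.266).

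Cold and dehydration genes were lower on balance, 14 of 18 below 0 with a median log2 fold change of −0.40. In edgeR 0 were called, against 0.158% of all genes, and 9 were lower at an unadjusted p under 0.05, against 7.91%. RAB18, a dehydrin induced by abscisic acid, stood at 44.6, 125 and 79.7 CPM in Col-0 and at 20.6, 30.4 and 29.2 CPM in npq4-1 (−1.63, SE 0.41, adjusted p = 0.0564). LTI78 (RD29A), a desiccation protein, stood at 309, 350.0 and 316 CPM and 224, 188 and 148 CPM (−0.80, SE 0.21, adjusted p = 0.0566). LTI30, a cold-induced dehydrin, had a log2 fold change of −0.74 (SE 0.24, adjusted p = 0.111). CBF1, CBF2 and CBF3, the cold-responsive activators, had log2 fold changes of 0.85, 0.10 and 0.08. All 18 genes were measured with bicarbonate too, where 16 were below 0 and the median was −0.24.

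Iron-deficiency genes had a median log2 fold change of −0.54 over the 14 tested, with BHLH100 the only member called. At an unadjusted p under 0.05 were 7 lower and 1 higher, against 7.91% and 8.33% of all genes. IMA3, a peptide that signals low iron, stood at 70.0, 15.2 and 28.5 CPM in Col-0 and at 10.2, 21.9 and 17.4 CPM in npq4-1, and IMA2 at 2.88, 0.439 and 0.856 CPM and 0.393, 0.36 and 0.426 CPM. Col-0 replicate 1 was the highest library for both. Neither passed the test (adjusted p = 0.115 and 0.125). In the circadian clock list ELF3, a component of the evening complex, was the only gene with an adjusted p under 0.05. It stood at 10.9, 13.4 and 12.0 CPM in Col-0 and 19.1, 16.3 and 16.7 CPM in npq4-1 (0.52, SE 0.12, adjusted p = 0.0387), and the list median was 0.04. LNK1 and PRR7, further clock components, differed by −0.20 (adjusted p = 0.113) and 0.17 (adjusted p = 0.145) on the log2 scale. The stomatal list of 9 had 0 calls, against 0.158% of all genes, and a median of −0.13. In it 1 gene was lower at an unadjusted p under 0.05, against 7.91% of all genes. Below 0 were 7 of the 9 with water and 8 with bicarbonate. SPCH and EPF1 of the stomatal lineage had −0.50 and −0.62 (adjusted p = 0.478 and 0.57), and the list summed to 63.7 to 68.8 CPM in Col-0 and 56.5 to 63.9 CPM in npq4-1. The list of reference genes also had 0 calls, and 1 gene was higher at an unadjusted p under 0.05, against 8.33% of all genes. PP2AA3 stood at 51.1 to 55.6 CPM in Col-0 and 50.1 to 60.7 CPM in npq4-1, ACT2 had a log2 fold change of 0.11, and UBQ10 had 0.19 (SE 0.08, adjusted p = 0.266), TIP41 0.04 and EF1A −0.18.

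When the 6 libraries were fitted by themselves, 86 genes were called higher (0.473% of 18178) and 17 lower (0.0935%), among them 25 of the 30 genes above. Several genes that this fit added are named here after their values were seen. BGL2 (PR2) and PR5 passed this fit with adjusted p = 0.0103 and 0.0432. So did HAI2, a phosphatase that restrains abscisic acid signalling, at 8.83, 7.53 and 8.96 CPM in Col-0 and 3.60, 3.90 and 3.30 CPM in npq4-1 (adjusted p = 0.00714, and 0.0996 in the fit of 30). RAB18 and LTI65 (RD29B) passed with adjusted p = 0.0222 and 0.0204. DIN10, a dark-inducible gene, stood at 30.0, 34.1 and 41.4 CPM in Col-0 and 63.6, 77.1 and 89.2 CPM in npq4-1 (log2 fold change 1.12, adjusted p = 0.00527, and 0.0781 in the fit of 30). SEN1, a senescence-associated gene, stood at 42.0, 46.7 and 28.1 CPM and 90.2, 104 and 92.6 CPM (1.3, adjusted p = 0.00427, and 0.236). ASN1, an asparagine synthetase, stood at 42.6, 52.8 and 44.0 CPM and 133, 87.3 and 63.2 CPM (1.02, adjusted p = 0.0379, and 0.237). SAG12, a protease of senescing leaves, had 0 counts in each Col-0 library and 11, 25 and 59 counts in npq4-1. With bicarbonate SEN1 spanned 18.1 to 127 CPM in Col-0 and 36.3 to 189 CPM in npq4-1, with overlapping groups. The log2 fold changes of SEN1, DIN10 and ASN1 were then 0.53, 0.72 and −0.16. SAG12 then had 1, 0 and 0 counts in Col-0 and 39, 0 and 0 counts in npq4-1.

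Just outside the call lay genes with small and even differences. CRK40, a receptor-like kinase, had a log2 fold change of 0.43 (adjusted p = 0.0117), ATG8E, an autophagy protein, 0.77 (0.0147), and ACR4, an ACT domain protein, 0.35 (0.0208). On the lower side, AT5G41460, AT1G31500, SAHH2 (which recycles S-adenosylhomocysteine), AT5G61220 and RHM1 (a rhamnose synthase) had log2 fold changes of −0.79, −0.47, −0.75, −0.57 and −0.41, with adjusted p between 0.0098 and 0.015. SAHH2 stood at 459.8, 419 and 573 CPM in Col-0 and 261, 319 and 284 CPM in npq4-1. By fold, the nearest genes inside the limit were XTH31 (−1.03), ELIP1 (−1.05) and AT2G41190 (−1.06), and the nearest outside were AT5G24990 (−0.97), PKS4 (0.95) and FLS1 (−0.94).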

How the data were processed

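The members compared and the gene lists were chosen with earlier results of these data known. Libraries were made from rosette RNA with a stranded mRNA kit and sequenced as paired reads. Per the methods, the authors quantified reads on TAIR10 cDNAs with Salmon, whose version is not given in the sources used here. The estimated counts deposited by the authors are reads per transcript (48268 transcripts), not normalized. The TPM values deposited by the authors are the same reads per effective length, scaled to a fixed total. Effective lengths, as deposited, served only for an alternative.

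For each of 27588 genes, the estimated counts of its transcripts were added and rounded. Symbols came from RefSeq TAIR10.1, which matched the locus of 27390 genes. Of the transcript lengths in the files, 47873 equal a RefSeq transcript of the same locus (99.2%), and coordinates and upstream regions are from TAIR10.1. Genes were filtered with filterByExpr (minimum count 10, minimum total 15), normalized by TMM and tested with edgeR 4.0.16 (R 4.3.3, limma 3.58.1) in a fit of all 30 libraries as 10 group means, with Benjamini-Hochberg adjustment over 18999 genes. The common coefficient of biological variation was 0.111. SE is the log2 fold change over the root of F. On simulated data of this comparison (18807 genes), 85.7% of genes changed by 1.5 on the log2 scale, 93.9% changed by 2 and 100% changed by 3 or 4 were recovered. Each size had 49 or 50 genes, and spread was set by the trend with level, without spread particular to a gene. Recovery of real genes that vary more between replicates, such as PR1 and PR2, is therefore not measured by it.

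Genes are named by a rule: PsbS and its neighbours, all called genes, the 3 tested members with the lowest p in each list, the study's primer and reference genes, and 5 uncalled genes in each direction. Other list members, named for their known role, were chosen after their values were seen. Alternatives were DESeq2 1.42.0, RLE factors, other filters, length-scaled TPM counts, no organelle genes, fewer libraries, a replicate block, no fold limit, log2(TPM + 1) in limma and each library left out.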

Additional observations from a re-analysis of the deposited data

How the results depend on the processing

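The number of genes called between npq4-1 and Col-0 with water (19 higher and 11 lower) depended on the settings. It was 43 and 17 with DESeq2, which gave NPQ4 no adjusted p, 5 and 6 with at least 10 CPM in 3 libraries (12321 genes tested), 86 and 17 with only the 6 libraries, 94 and 19 with only the 15 water libraries, 64 and 70 without the fold limit, and 14 and 7 with limma on log2(TPM + 1). With each library left out in turn it ranged from 1 to 25 higher and from 2 to 20 lower. With a replicate block it was 33 and 13, and 79 and 17 with a replicate block and only the 6 libraries. Deviations from the group means of Col-0 and npq4-1 libraries with the same number correlated at −0.01, −0.06 and 0.03. Not every library correlated best with its own number. With bicarbonate, SEN1 fell from replicate 1 to 3 in both genotypes, at 127, 39.2 and 18.1 CPM in Col-0 and 189, 41.7 and 36.3 CPM in npq4-1. PAD3 had its lowest library there in replicate 3 of Col-0 and replicate 2 of npq4-1. A shared order of replicates with bicarbonate was not tested, and that contrast was not run with a replicate block. The cause of the shifts between settings was not tested. No gene or list median of those named reversed a call, and of the single-gene values and list medians recomputed 1833 were on the same side of the threshold or within the spread, 151 lost the call, 33 gained it and 3 medians, all of the flower list, moved, to 0.78 with at least 10 CPM in 3 libraries and as given above without 1 library. With bicarbonate 4 genes were called, also with DESeq2 and with RLE factors, and 3 with only the 6 libraries. For the difference between treatments 0 were called in the 3 settings run, edgeR on 30 and on 12 libraries and DESeq2. With 3 libraries a group, genes of a few counts such as AT1G13520 carry wide counting error.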
